A study of Mus musculus with 2 samples.

Results

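The genes described here are 10 markers of arterial and venous endothelial cells (ECs), chosen by name from the 21951 genes counted in the library. They comprise 6 arterial genes (*Gja4*, *Gja5*, *Gja1*, *Efnb2*, *Unc5b* and *Bmx*) and 4 venous genes (*Ephb4*, *Nr2f2*, *Aplnr* and *Vwf*), and all 10 had UMIs (unique molecular identifiers, each counting 1 captured RNA molecule) in every group. They were read in 1 droplet-based scRNAseq library in which 6 hashtagged cell samples were pooled. These were ECs from hearts and livers of C57BL/6 mouse pups, labelled control, *iSuRe-Cre* or *iSuRe-HadCre*. Barcodes with 2000 to 75000 UMIs, over 500 genes, mitochondrial and haemoglobin shares below 5% and *Cdh5* (VE-cadherin, an EC junction protein) above a log-normalized value of 0.9 were kept when exactly 1 hashtag passed its limit of 25 UMIs (140 for the tag HTO302, whose background was higher). These were 1988 of 7704 *Cdh5*-positive barcodes, whereas 131 with several tags and 5585 with none were left out.

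The groups held 254, 435 and 311 heart cells (control, *iSuRe-Cre* and *iSuRe-HadCre*, an order kept wherever 3 values stand in a row) and 54, 858 and 76 liver cells. Pups received 4-hydroxytamoxifen (4-OHT) once, 40 mg/kg at postnatal day 3, and tissues were taken 3 days later. Their age is given as postnatal day 6 to 7. ECs were sorted as CD31+ cells with or without membrane Tomato. The *iSuRe-Cre* allele, once recombined, expresses Cre and a membrane Tomato reporter together and continuously. The *iSuRe-HadCre* allele expresses Cre and FlpO only transiently, and FlpO then removes both and leaves the reporter on. Both were combined with *Cdh5-CreERT2*, a Cre that 4-OHT activates in ECs only. The study adds floxed *Notch1* alleles to both *iSuRe* groups, which the sample labels do not mention, and the genotype of the control is not given in the sources used here. Each group was 1 hashtagged sample and the number of pups behind it is not given, so no difference below has a replicate check or a test. All 95% intervals are exact, treat UMIs or cells as independent, and cover counting error only.

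Arterial and venous ECs express different genes already before blood flow starts. Notch signalling, driven by *Dll4* and other ligands, maintains arterial genes, whereas the nuclear receptor encoded by *Nr2f2* (COUP-TFII) restrains Notch in veins. The membrane ligand *Efnb2* on arterial cells and its receptor *Ephb4* on venous cells keep the vessel types apart, and connexins such as *Gja4* and *Gja5* couple arterial ECs through gap junctions. In the liver, sinusoidal, portal and central venous ECs carry further programmes of their own, and *Vwf* is stored by ECs of larger vessels.

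To show the sequence at the genes that were lower together in both *iSuRe-Cre* groups (*Gja4*, *Gja5*, *Efnb2* and *Unc5b*, values below), and at *Bmx*, the 250 bases before the RefSeq start of each are given 5′ to 3′ on the gene's strand, in GRCm38.p6 coordinates. Capitals mark TGGGAA, the core bound by the Notch effector RBPJ, and ACAAT, a core of SOX sites, each searched on both strands with no overlap between them.

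Gja4, chr4:127314040-127314289, minus strand: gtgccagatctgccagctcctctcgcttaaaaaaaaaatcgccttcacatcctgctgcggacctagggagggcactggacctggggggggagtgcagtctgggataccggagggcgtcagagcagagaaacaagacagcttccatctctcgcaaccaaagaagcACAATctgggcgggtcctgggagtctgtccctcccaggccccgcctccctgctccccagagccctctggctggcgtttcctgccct
Gja5, chr3:97032152-97032401, plus strand: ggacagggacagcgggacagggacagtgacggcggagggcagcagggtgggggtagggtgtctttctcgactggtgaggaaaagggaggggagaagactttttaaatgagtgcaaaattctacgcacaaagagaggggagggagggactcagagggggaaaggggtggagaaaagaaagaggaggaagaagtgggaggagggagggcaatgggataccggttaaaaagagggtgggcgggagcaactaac
Efnb2, chr8:8661243-8661492, minus strand: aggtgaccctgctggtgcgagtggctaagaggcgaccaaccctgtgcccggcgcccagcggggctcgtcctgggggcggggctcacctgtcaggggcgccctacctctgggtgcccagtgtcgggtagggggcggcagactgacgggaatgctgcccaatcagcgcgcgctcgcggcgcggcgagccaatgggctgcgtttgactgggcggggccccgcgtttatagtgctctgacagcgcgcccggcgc
Unc5b, chr10:60831582-60831831, minus strand: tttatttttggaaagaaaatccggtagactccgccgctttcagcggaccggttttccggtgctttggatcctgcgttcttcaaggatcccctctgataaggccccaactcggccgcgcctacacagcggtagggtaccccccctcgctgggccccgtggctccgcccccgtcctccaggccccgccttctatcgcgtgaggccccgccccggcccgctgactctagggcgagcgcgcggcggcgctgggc
Bmx, chrX:164258194-164258443, minus strand: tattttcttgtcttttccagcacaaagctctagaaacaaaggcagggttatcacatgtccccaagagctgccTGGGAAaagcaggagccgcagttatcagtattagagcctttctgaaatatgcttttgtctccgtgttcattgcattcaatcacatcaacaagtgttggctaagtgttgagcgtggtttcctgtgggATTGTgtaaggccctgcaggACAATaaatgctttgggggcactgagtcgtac

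The 2 motifs were not shared by the genes that were lower together. TGGGAA was found in 1 of the 8 members with a RefSeq promoter, *Bmx*, and is held by 21.6% of all 32851 promoter windows of that length. ACAAT was found once in *Gja4* and 2 times in *Bmx*, and 27.7% of all windows hold it. The GC content ran from 45.6% (*Bmx*) to 72% (*Efnb2*), against a median of 52.4% over all windows. *Aplnr* and *Vwf* were matched to no window. In the GRCm38 annotation, the *Gja5* locus (chr3:96904693-97077416) spans several genes of the opposite strand, and *Ephb4* (chr5:137350109-137378669) overlaps *Zan* on the opposite strand. The other arterial loci are *Gja4* at chr4:127311421-127314039, *Gja1* at chr10:56377330-56402513, *Efnb2* at chr8:8617434-8661242, *Unc5b* at chr10:60762593-60831581 and *Bmx* at chrX:164192842-164258193. The other venous loci are *Nr2f2* at chr7:70351944-70366735, *Aplnr* at chr2:85136225-85139923 and *Vwf* at chr6:125546774-125686679.

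The targeted gene *Notch1*, which encodes the receptor itself, was lower in all 4 *iSuRe* groups. It stood at 138, 12.6 and 23.2 CPM (UMIs of the gene per 1000000 UMIs of the group) in the hearts and at 160, 21.4 and 30.7 CPM in the livers. UMIs per group ran from 624048 in control liver to 9341120 in *iSuRe-Cre* liver and the median cell held 7322 to 16379, the most in *iSuRe-Cre* heart. The 7 EC markers summed to 3417 to 4458 CPM in every group, but single markers moved. *Pecam1* (CD31) was at 844, 585.5 and 859.5 CPM in the hearts and at 872, 485 and 858 in the livers. *Cdh5* in *iSuRe-Cre* was at 0.745 of control in the heart and 0.685 in the liver. Clusters with *Pecam1* below 0.7 of the median cluster held 240 of 858 *iSuRe-Cre* liver cells and 11 of 54 control liver cells. These clusters were led by genes of other cell types, so their cells may not be ECs. Among *iSuRe-Cre* liver cells, cluster 4 (numbered as below, with *Col3a1*) held 70, cluster 12 (*Ibsp*, *Col1a1*) 52 and cluster 14 (*Afp*, *Alb*) 35. Cluster 12 held cells of this group alone, whose tag was HTO302. What part lower *Pecam1* and *Cdh5* had in the results below was not tested. Markers of other cells moved with the groups: the hepatocyte list summed to 640 CPM in *iSuRe-Cre* heart and 539 in *iSuRe-Cre* liver against 70.3 to 111 elsewhere, and all 7 of its genes were detected in 5 of the 6 groups. The liver groups did not hold like cells, since the 7 liver sinusoidal markers, all detected in every group, summed to 471 CPM in control liver, 3507 in *iSuRe-Cre* liver and 1007 in *iSuRe-HadCre* liver. The defining sinusoidal gene *Stab2* was at 30.4, 1446 and 387 CPM there, so in the liver a difference between groups and a difference in the kinds of EC captured cannot be told apart. Reporter mRNA carrying the WPRE element was counted in the controls as well. It was at 562, 63.5 and 1055 CPM in the hearts, at 396, 105 and 1070 CPM in the livers and at 160 CPM in free RNA. Both *iSuRe-Cre* groups thus lay below their controls and below free RNA. Of the 435 *iSuRe-Cre* heart cells 145 passed a WPRE limit of 0.5 (log-normalized), and of the 858 in the liver 379. The study removed cells at or below this limit to keep Tomato-expressing ECs, whereas the groups here include them. Limiting the *iSuRe* groups, but not the controls, to cells above it left the count of lower arterial genes in *iSuRe-Cre* heart at 4.

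**Figure D1:**
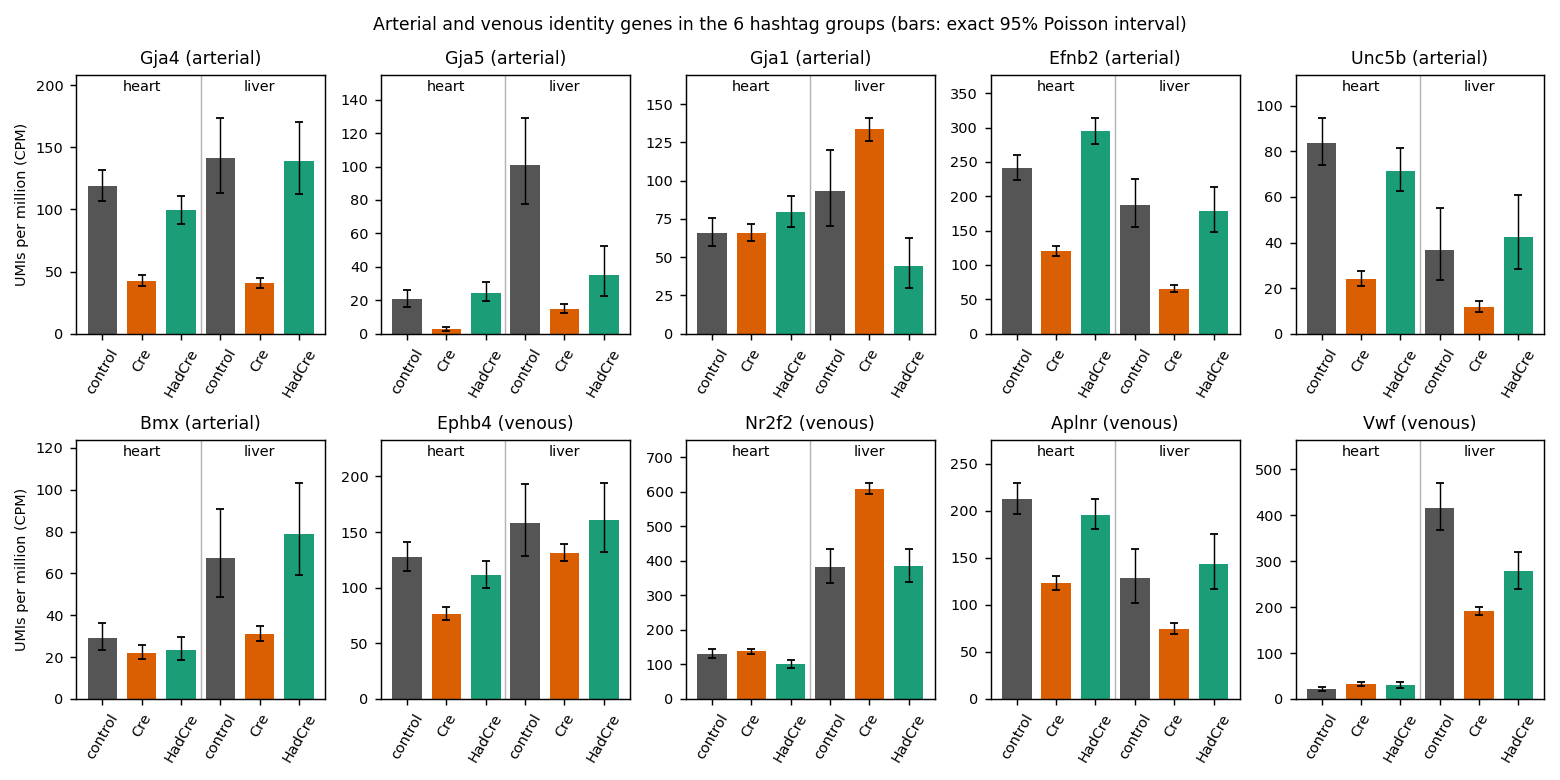
Level of each of the 10 genes in the 6 groups, in CPM (bars) with exact 95% Poisson intervals (lines), heart groups left and liver groups right in each panel. *Gja4*, *Gja5*, *Efnb2* and *Unc5b* were lowest in the *iSuRe-Cre* bar of both tissues, whereas *Nr2f2* and *Vwf* stood higher in the liver than in the heart.

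The connexin *Gja4* (Cx37) was low in both *iSuRe-Cre* groups, near control in *iSuRe-HadCre* heart and, over all cells, in *iSuRe-HadCre* liver. Its heart levels were 119 CPM (107 to 132), 42.5 (38.2 to 47.2) and 99.3 (88.5 to 111). Its liver levels were 141 CPM (113 to 174), 40.6 (36.6 to 44.9) and 139 (112 to 170). The 2 *iSuRe-Cre* groups did not differ from each other beyond their intervals, and each lay below the other groups. The share of cells with a *Gja4* UMI, after thinning every cell to 2000 UMIs, was 14.9%, 8.14% and 14.8% in the 3 hearts (unthinned 26.4%, 21.8% and 27.3%), and 20.6%, 7.33% and 18.1% in the livers. In 64 hepatocyte-marker barcodes without *Cdh5*, which should lack the gene, the thinned share was 3.72% at a median of 12522 UMIs, and free RNA in near-empty droplets held 46.6 CPM of it. The *iSuRe-HadCre* liver level depended on the setting, as given with its ratio. Both *iSuRe-Cre* levels of *Gja4* lay below its level in free RNA.

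*Gja5* (Cx40), the connexin most restricted to arteries, had few UMIs and the widest range of the 10 genes, 36.4-fold from lowest to highest group. In the hearts it was counted at 20.5 CPM (62 UMIs), 2.77 (23 UMIs) and 24.5 (76 UMIs). In the liver it stood at 101, 14.8 and 35.1 CPM, from 63, 138 and 24 UMIs. Unlike *Gja4*, it was below control in the *iSuRe-HadCre* liver as well. It was detected in 21, 7 and 19 heart cells, and 1 cell gave 16 of the 76 UMIs in *iSuRe-HadCre* heart and 10 of the 23 in *iSuRe-Cre* heart. The 64 hepatocyte-marker barcodes held none, which allows up to 5.60% of such cells to carry a UMI, but free RNA held it at 8.67 CPM (3.74 to 17.1), above its *iSuRe-Cre* heart level.

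*Gja1* (Cx43), the broadest of the connexins, did not follow the other connexins. Its heart levels were 66.0, 66.0 and 79.6 CPM. In the liver the *iSuRe-Cre* group was the highest at 133 CPM (126 to 141), control stood at 92.9 (70.6 to 120), and *iSuRe-HadCre* was the lowest at 43.9 (29.6 to 62.7), below the 56.4 CPM in free RNA.

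*Efnb2*, the arterial ligand, repeated the pattern of *Gja4* at a level spread over more cells. In the hearts it was at 241 CPM (224 to 259), 120 (113 to 128) and 295 (276 to 314), the last being the highest of all groups. In the liver it was at 187 CPM (155 to 225), 65.7 (60.6 to 71.1) and 179 (148 to 213). Control and *iSuRe-HadCre* liver overlapped, and *iSuRe-Cre* liver was the lowest group, below the 68.3 CPM in free RNA. In the hearts the richest 10% of cells held 36.0% to 43.1% of its UMIs, against 69.2% to 74.5% for *Gja4*.

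*Unc5b*, a netrin receptor of arterial and tip ECs, had heart levels of 83.8 CPM (73.8 to 94.8), 24.1 (20.9 to 27.7) and 71.5 (62.4 to 81.6). The livers lay lower, at 36.9, 11.8 and 42.5 CPM from 23, 110 and 29 UMIs, with *iSuRe-Cre* again the lowest. *Bmx*, a cytoplasmic tyrosine kinase used as an arterial marker, was at 29.4, 22.2 and 23.5 CPM in the hearts. The intervals of these levels overlapped, but the ratio of *iSuRe-Cre* to control heart, 0.754 (0.583 to 0.983), lay below 1. In the liver *Bmx* was at 67.3 CPM (48.5 to 91.0), 30.9 (27.5 to 34.7) and 79.1 (59.4 to 103), so that only *iSuRe-Cre* liver stood apart.

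Of the venous genes, *Ephb4*, the receptor of *Efnb2*, had the narrowest range, 2.10-fold over the 6 groups. In the hearts it was at 128 CPM (115 to 141), 76.7 (70.9 to 82.9) and 112 (100.1 to 124). The livers, at 159, 131 and 161 CPM, did not differ from their neighbours in the order beyond the intervals.

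*Nr2f2* was a liver-high gene. Heart levels were 131 CPM (118 to 145), 138 (130 to 146) and 101 (90.3 to 113), and liver levels were 383 (336 to 435), 610 (594 to 626) and 385 (340 to 434). The thinned shares of heart cells with an *Nr2f2* UMI, 16.8%, 18.6% and 13.2%, were not above the 19.1% in the hepatocyte-marker barcodes. These barcodes held it at 67.8 CPM and free RNA at 125 CPM, and whether their own cells express it was not tested. The heart UMIs were uneven. In *iSuRe-Cre* heart cluster 11, described below, held 39.5% of them in 48 of 435 cells, and cluster 8 held 0.785% in 30. The liver shares of 42.7%, 60.5% and 39.5% were above that of the hepatocyte-marker barcodes.

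*Aplnr*, the apelin receptor of venous and capillary ECs, had heart levels of 213 CPM (196 to 230), 123 (116 to 131) and 196 (181 to 212). In the liver it was at 128 CPM (102 to 160), 74.8 (69.4 to 80.6) and 143 (116 to 175). The *iSuRe-Cre* group was thus the lowest of both tissues for this venous gene and for *Ephb4*, as for every arterial gene but *Gja1*, although the heart intervals of *Bmx* and the liver intervals of *Ephb4* overlapped.

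*Vwf*, the haemostatic protein stored in ECs, had heart levels of 21.1 CPM (16.3 to 26.97), 32.2 (28.4 to 36.3) and 29.6 (23.9 to 36.4), all below its 47.7 CPM in free RNA. Its liver levels were 417 CPM (367 to 470), 191 (182 to 200) and 278 (240 to 321), and these 3 intervals did not overlap. The liver order, control above *iSuRe-HadCre* above *iSuRe-Cre*, was the reverse of the order of the sinusoidal markers given above. Their part in the result was not tested. The summed platelet markers, which could also bring *Vwf*, were at 8.38 to 41.5 CPM, and *Ppbp* was at 0 in every group but *iSuRe-Cre* liver.

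Whether the alleles differed from control was read with a rule of size: a gene with at least 20 UMIs over both groups was called when its CPM ratio passed 1.5-fold. In *iSuRe-Cre* heart 4 of the 6 arterial genes were lower and none higher. Of all 12167 genes with enough UMIs, 11.5% were lower and 11.1% higher by the same rule. *Gja5* stood at 0.135 of control (0.0800 to 0.222), *Unc5b* at 0.287 (0.238 to 0.347), *Gja4* at 0.358 (0.308 to 0.416) and *Efnb2* at 0.498 (0.452 to 0.549). *Bmx* (0.754, 0.583 to 0.983) and *Gja1* (1.00) stayed within the rule. Of the venous genes *Ephb4* (0.601) and *Aplnr* (0.580) were lower, *Vwf* (1.52, 1.16 to 2.03) was higher by a narrow margin and *Nr2f2* (1.05) was within. With at least 50 tag UMIs per cell the *Vwf* ratio was 0.835, below 1. The median log2 ratio was -1.24 over the arterial genes, -0.33 over the venous genes and -0.06 over all genes. The heart groups also differed in the kinds of cell they held. Heart capillary markers (6 of 6 detected in each) summed to 21653, 15225 and 12508 CPM and endocardial markers (5 of 5) to 304, 467 and 323 CPM, and the proliferation gene *Top2a* was at 123, 257 and 244 CPM. Capillary cluster 2, described below, held 127 of 254 control, 18 of 435 *iSuRe-Cre* and 84 of 311 *iSuRe-HadCre* cells. Cluster 8 held 39, 30 and 39, and cluster 9 held 19, 0 and 61. Over whole groups a lower level and a different make-up cannot be told apart, and values within clusters are given below. The part of the hepatocyte markers, also higher in this group, was not tested.

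In *iSuRe-HadCre* heart no member was called in either direction, while 3.79% of all genes were lower and 15.2% higher. The arterial ratios ran from 0.801 (*Bmx*, 0.580 to 1.10) to 1.22 (*Efnb2*, 1.11 to 1.35), with *Gja4* at 0.835 (0.715 to 0.975), *Gja5* at 1.197 (0.845 to 1.70) and *Unc5b* at 0.853 (0.710 to 1.03). The venous ratios ran from 0.772 (*Nr2f2*) to 1.40 (*Vwf*). *Notch1* in the same cells was at 0.169 of control (0.129 to 0.217), against 0.0919 (0.0735 to 0.114) in *iSuRe-Cre* heart. The intervals of *Gja5* and *Vwf* reach past 1.5-fold higher and those of *Bmx* and *Nr2f2* (0.664 to 0.898) past 1.5-fold lower, so differences of that size could not be told at this depth. The medians were 0.02 (arterial), -0.16 (venous) and 0.13 (all genes) on the log2 scale. The count of arterial genes became 1 with at least 50 tag UMIs (*Gja5*) or after thinning (*Bmx*), and the count of venous genes became 1 under several other settings, through *Vwf*.

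In *iSuRe-Cre* liver 5 of the 6 arterial genes were lower, against 19.2% lower and 17.4% higher of all genes. *Gja5* stood at 0.146 of control (0.108 to 0.2004), *Gja4* at 0.288 (0.228 to 0.367), *Unc5b* at 0.320 (0.203 to 0.525), *Efnb2* at 0.351 (0.287 to 0.431) and *Bmx* at 0.460 (0.332 to 0.652). *Gja1* was at 1.44 (1.10 to 1.90). Of the venous genes *Vwf* (0.458) and *Aplnr* (0.584) were lower, *Nr2f2* (1.59, 1.40 to 1.82) was higher and *Ephb4* (0.828) was within. The median log2 ratios were -1.58 (arterial), -0.52 (venous) and -0.06 (all genes). The sinusoidal-like clusters 1 and 6, described below, held 239 and 127 of the 858 *iSuRe-Cre* liver cells and none of the 54 control liver cells. Without them 4 arterial and 2 venous genes were called.

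In *iSuRe-HadCre* liver 2 of the 6 arterial genes were lower, *Gja5* at 0.348 (0.208 to 0.565) and *Gja1* at 0.473 (0.294 to 0.747), and no venous gene was called, against 11.5% lower and 10.7% higher of all genes. *Gja4* (0.986, 0.730 to 1.33), *Efnb2* (0.953, 0.733 to 1.24), *Unc5b* (1.15, 0.644 to 2.09) and *Bmx* (1.17, 0.770 to 1.80) were within the rule, on 23 to 122 UMIs per group. *Gja4* was at 0.444 after thinning, 0.483 within cluster 10 and 0.658 with at least 50 tag UMIs, so that it was called lower under each, and the count was then 3. *Vwf*, at 0.668 (0.551 to 0.808), lay just inside the rule, and was called lower under several other settings.

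**Figure D2:**
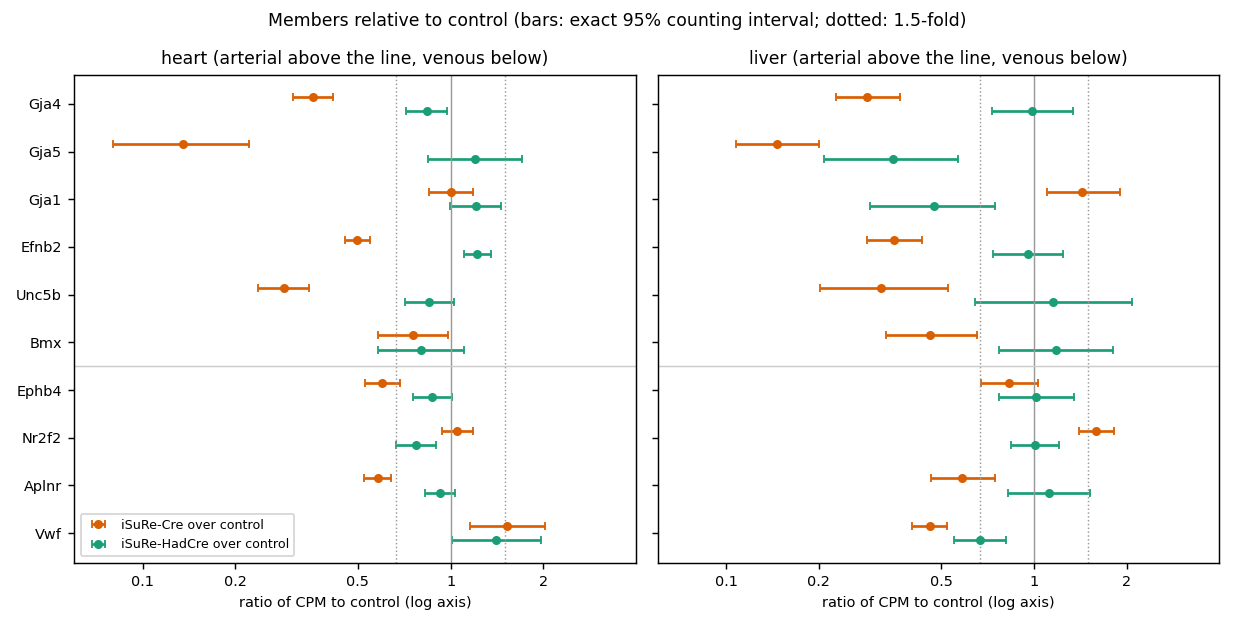
Ratio of each gene to the control of the same tissue on a log axis, with exact 95% intervals, for *iSuRe-Cre* and *iSuRe-HadCre* in heart and liver. In the heart the *iSuRe-Cre* points of *Gja5*, *Unc5b*, *Gja4* and *Efnb2* lie between 0.135 and 0.498, and no *iSuRe-HadCre* point passes 1.5-fold.

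The 4 comparisons above share their control within a tissue, so the alleles were also compared directly. In the heart, *iSuRe-HadCre* cells held more *Gja5* (8.84-fold, 5.48 to 14.8), *Unc5b* (2.97-fold, 2.44 to 3.61), *Efnb2* (2.45-fold, 2.24 to 2.68), *Gja4* (2.33-fold, 2.00 to 2.73) and *Aplnr* (1.59-fold) than *iSuRe-Cre* cells. None of the 10 genes was lower, while 23.2% of all genes were higher and 6.77% lower by the rule. *Notch1* was itself 1.84-fold higher (1.34 to 2.50). In the liver, *Unc5b* (3.61-fold), *Gja4* (3.43-fold), *Efnb2* (2.72-fold), *Bmx* (2.56-fold), *Gja5* (2.38-fold) and *Aplnr* (1.92-fold) were higher. *Gja1*, at 0.329, and *Nr2f2*, at 0.632, were lower, and the background there was 16.3% higher and 17.2% lower.

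Between the control tissues, 6 of the 10 genes were called, against 20.3% lower and 11.3% higher of all genes in heart relative to liver. *Vwf* in control heart was at 0.0507 of control liver (0.0379 to 0.0669), *Gja5* at 0.203, *Nr2f2* at 0.342 and *Bmx* at 0.436. *Unc5b* (2.27-fold) and *Aplnr* (1.66-fold) were higher in the heart. *Gja4* (0.842), *Gja1* (0.710), *Efnb2* (1.29) and *Ephb4* (0.805) were within the rule. The 54 control liver cells had low sinusoidal markers (*Stab2*, 30.4 CPM) and the endocardial marker *Npr3* at 173 CPM against 59.4 in control heart. The part of either in the result was not tested.

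To see which cells held the genes, the 1988 cells were clustered without the 10 members, *Notch1* and the transgenes, giving 24 clusters that are called by number. Cluster 8 (124 cells, led by *Cxcl12*, *Sema3g*, *Fbln5* and *Stmn2*) had the highest *Gja4*, at 536 CPM (495 to 579), with *Efnb2* at 516, *Gja5* at 103, *Unc5b* at 144 and *Bmx* at 128, whereas *Nr2f2* (34.4) and *Aplnr* (30.2) were low. It held 60.3% of all *Gja4* UMIs and 79.0% of all *Gja5* UMIs of control heart in 39 of 254 cells. Several of its leading genes are on the further arterial list below.

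**Figure D3:**
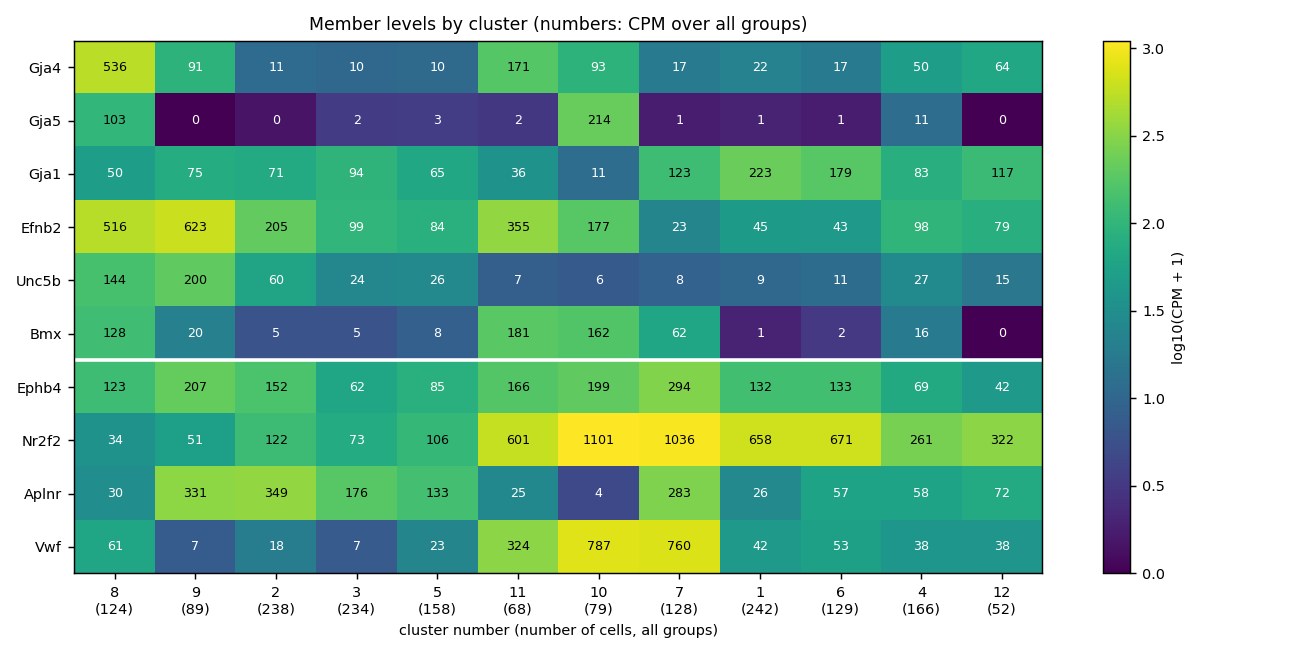
Level of each gene, as log10 of CPM plus 1, in the clusters of at least 50 cells over all groups. *Gja5* reaches 103 CPM in cluster 8 and 214 CPM in cluster 10 and is near 0 in most others, and *Nr2f2* and *Vwf* are high together in clusters 7 and 10.

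*Efnb2* and *Unc5b* reached further than the connexins. Cluster 9 (89 cells, led by *Pdgfd*, *Dach1* and *Btnl9*) had *Efnb2* at 623 CPM and *Unc5b* at 200.5, above or beside cluster 8, with *Gja4* at 91.1 and no *Gja5* UMI. The same cluster held *Aplnr* at 331 CPM and *Ephb4* at 207. Of the heart cells it held 19 control, 0 *iSuRe-Cre* and 61 *iSuRe-HadCre*. Those 61 cells carried 26.6% of the *Efnb2* UMIs and 30.2% of the *Unc5b* UMIs of *iSuRe-HadCre* heart. The part of this cluster in the group levels was not tested. In cluster 2 (238 cells, led by *Car4*, *Rgcc* and *Lpl*, which mark capillaries) *Aplnr* was at 349 CPM, *Efnb2* at 205 and *Ephb4* at 152, while *Gja4* (10.5) and *Gja5* (0.458) were near background.

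In cluster 11 (68 endocardial-like cells, led by *Npr3*) genes of both lists were high in the same cells: *Nr2f2* at 601 CPM, *Efnb2* at 355, *Vwf* at 324, *Bmx* at 181 and *Gja4* at 171, with *Gja5* at 2.11. Clusters 7 and 10 were found in the liver alone. In cluster 10 (79 cells, led by *Adgrg6*, *Nrg1* and *Ntn4*) *Gja5* at 214 CPM and *Bmx* at 162 stood beside *Nr2f2* at 1101 and *Vwf* at 787, and *Aplnr* was at 3.71. Of its 79 cells, 53 had UMIs of both *Gja5* and *Nr2f2*, against 3 of the 124 cells of cluster 8. In cluster 7 (128 cells, led by *Rspo3*, *Wnt9b* and *Selp*) *Nr2f2* at 1036 CPM, *Vwf* at 760.5, *Ephb4* at 294 and *Aplnr* at 283 were high and *Gja5* was at 0.727. The sinusoidal-like clusters 1 and 6 (242 and 129 cells) held the most *Gja1*, at 223 and 179 CPM, with *Nr2f2* at 658 and 671 and *Vwf* at 41.6 and 52.9.

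Within cluster 8, which holds cells more alike than the whole groups, *iSuRe-Cre* was again the lowest heart group for *Gja4*, *Gja5*, *Efnb2* and *Unc5b*. *Gja4* was at 783, 253 and 614 CPM in 39, 30 and 39 cells, which is 0.322 (0.254 to 0.407) and 0.784 (0.638 to 0.963) of control. *Gja5* was at 177, 20.1 and 208 CPM, *Efnb2* at 686, 299.5 and 772, and *Bmx* at 141, 42.5 and 158. *Unc5b* was the exception: at 310.5, 67.1 and 133 CPM it was at 0.216 of control in *iSuRe-Cre* and also at 0.428 (0.283 to 0.636) in *iSuRe-HadCre*. *Notch1* in these cells was at 321, 8.94 and 68.3 CPM. *Gja1* was also lower in both, on 19, 10 and 8 UMIs. *Vwf* at 75.8, 29.1 and 89.8 CPM and *Aplnr* at 36.1, 44.7 and 21.6 lay on the other side of 1 from their ratios over all *iSuRe-Cre* heart cells. The cluster was drawn from genes of which some differ between the groups.

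**Figure D4:**
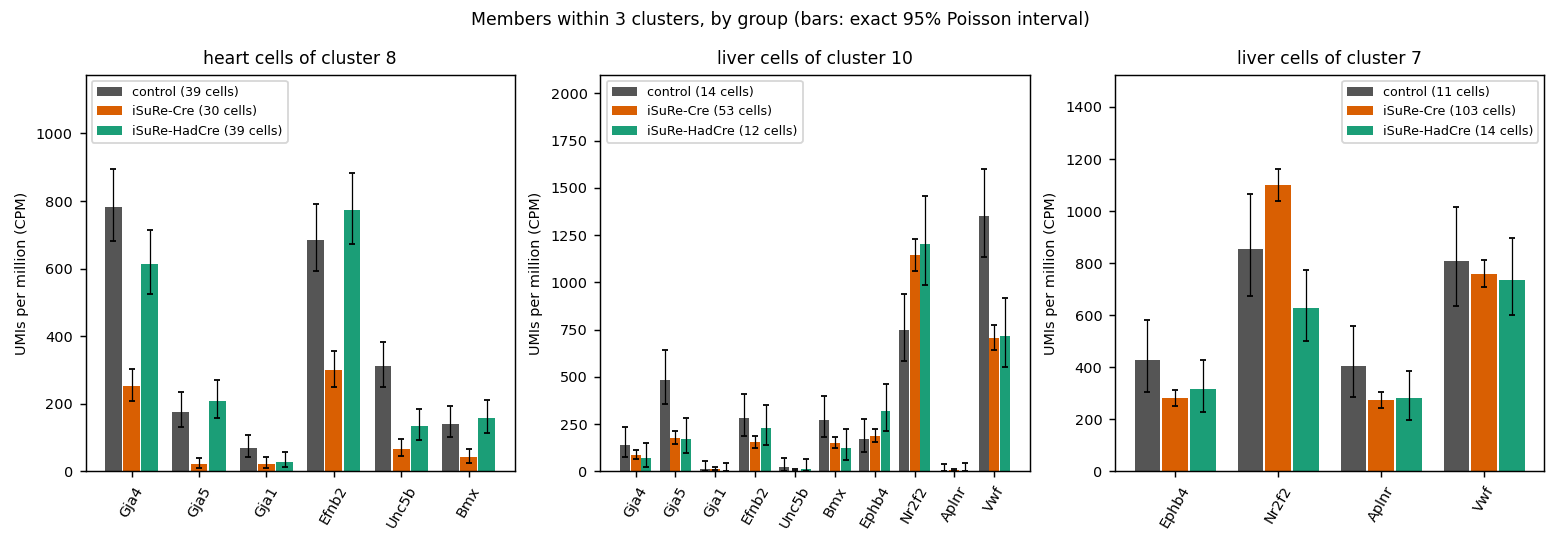
Levels in CPM with exact 95% Poisson intervals of members within cluster 8 (heart groups) and within clusters 10 and 7 (liver groups), with cell numbers in the legends. In cluster 8 the *iSuRe-Cre* bars of *Gja4* (253), *Gja5* (20.1), *Efnb2* (299.5), *Unc5b* (67.1) and *Bmx* (42.5) are the lowest of the 3 groups.

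The other clusters with enough heart cells were read in the same way, after the values of cluster 8 were seen. *Efnb2* in *iSuRe-Cre* was at 0.494 of control in cluster 3 (0.356 to 0.697), 0.478 in cluster 4 (0.342 to 0.666) and 0.543 in cluster 5 (0.373 to 0.811), and *Unc5b* at 0.455, 0.349 and 0.342. Cluster 3 was led by *Adm* and *Apln*, cluster 5 by proliferation genes such as *Mki67*, and cluster 4 by genes of fibroblasts and other mesenchymal cells (*Col3a1*, *Col1a2* and *Prrx1*), whose part in its values was not tested. Cluster 2, which holds capillary cells, was the exception. *Efnb2* was there at 172, 250 and 272 CPM in 127, 18 and 84 cells, so that *iSuRe-Cre* stood at 1.46 of control (1.04 to 2.00) and *iSuRe-HadCre* at 1.58 (1.29 to 1.94). *Unc5b* in cluster 2 was at 1.61 (0.832 to 2.91) and 1.88 (1.28 to 2.76) of control, and *Gja4* in *iSuRe-Cre* had 8 UMIs against 10 (5.61-fold, 1.93 to 15.8).

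In *iSuRe-HadCre* heart, where no member was called over all cells, some ratios within clusters were low. *Gja4* was at 0.391 of control in cluster 4 (0.251 to 0.598, 35 against 65 UMIs) and had 2 UMIs against 8 in cluster 5. *Unc5b* was at 0.405 in cluster 5 (0.159 to 0.961) and 0.590 in cluster 9 (0.388 to 0.910), beside its 0.428 in cluster 8. *Aplnr* in *iSuRe-Cre* was at 0.575 of control in cluster 2 (0.402 to 0.801), 0.961 in cluster 5 and 1.73 in cluster 4 (1.07 to 2.90), so that its ratio over all heart cells was not that of each cluster.

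Within cluster 10, which held 14, 53 and 12 liver cells of the groups, both alleles lay below control for *Gja5* and *Bmx*. *Gja5* was at 484, 177 and 170 CPM, or 0.366 (0.258 to 0.524) and 0.352 (0.183 to 0.640) of control. *Bmx* was at 272, 149.5 and 125 CPM, and *Efnb2* at 282, 153 and 227. The alleles did not differ beyond counting error for *Gja5* (ratio 0.964, 0.522 to 1.66), unlike over all liver cells. *Nr2f2* was higher in both, at 746, 1143 and 1204 CPM, or 1.53 (1.21 to 1.97) and 1.61 (1.19 to 2.20) of control. *Vwf* was lower in both, at 1351, 707.5 and 716 CPM. *Notch1* had 25 UMIs in the 14 control cells, 25 in the 53 *iSuRe-Cre* cells and 0 in the 12 *iSuRe-HadCre* cells.

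In cluster 7, with 11, 103 and 14 cells, *Vwf* differed less from control than over all liver cells. *Ephb4* did not, and *Nr2f2* and *Aplnr* did so only in *iSuRe-Cre*. *Vwf* was at 809, 759.5 and 736 CPM, *Nr2f2* at 853, 1099 and 626, *Ephb4* at 426, 281 and 317, and *Aplnr* at 404.5, 273.5 and 280. *Vwf* was at 0.939 of control (0.740 to 1.21) in *iSuRe-Cre*, where over all liver cells it was at 0.458. *Ephb4* was at 0.660 in *iSuRe-Cre* and 0.743 in *iSuRe-HadCre*, further from 1 than over all liver cells, as were *Nr2f2* (0.734) and *Aplnr* (0.692) in *iSuRe-HadCre*. *Notch1* in this cluster was at 197, 19.2 and 29.5 CPM.

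Co-detection was measured as the number of cells with a UMI of both genes over the number expected from each gene's share of cells within 5 bins of cell depth. In control heart the 14 arterial pairs with at least 5 expected cells had a median of 1.24, the 6 venous pairs 1.05 and the 22 arterial-venous pairs 0.971. Among these, the highest ratio was that of *Gja4* and *Gja5*, found together in 18 cells where 5.45 were expected (3.30, 1.96 to 5.22). *Gja4* with *Bmx* followed at 2.65 (1.72 to 3.91), then *Gja5* with *Unc5b* at 1.75, the arterial-venous pair *Gja4* and *Vwf* at 1.67 (0.862 to 2.91) and *Gja4* with *Unc5b* at 1.65 (1.23 to 2.16). *Gja5* and *Bmx*, with 2.74 expected cells, shared 12. *Gja5* and *Aplnr* shared none of 254 cells where 13.4 were expected, and *Aplnr* was also under-represented with *Gja4* (0.389) and *Bmx* (0.387). *Efnb2* and its receptor *Ephb4*, the textbook arterial and venous pair, shared 140 cells where 136 were expected (1.03, 0.866 to 1.22). They were detected in 190 and 177 of the 254 cells, so many cells had to hold both. The ratio could not move far from 1 and cannot tell whether the 2 genes mark separate cells.

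**Figure D5:**
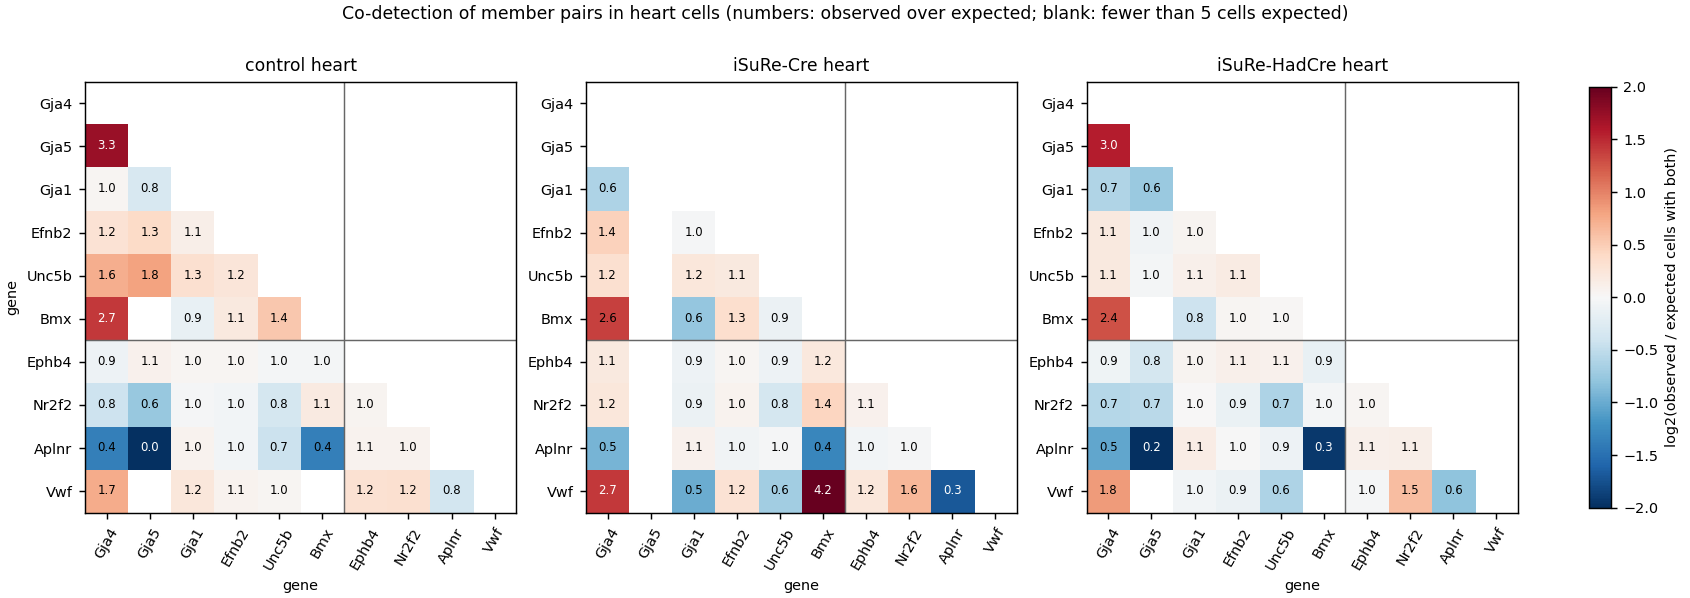
Observed over expected number of cells with UMIs of both genes for each pair in the 3 heart groups (colour: log2, numbers: ratio), left blank under 5 expected cells. *Gja4* with *Gja5* is at 3.3 in control and 3.0 in *iSuRe-HadCre*, and *Aplnr* with *Gja5* is at 0.0 and 0.2.

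In the other hearts *Gja4* went with *Bmx* and apart from *Aplnr* as well. In *iSuRe-HadCre* heart *Gja4* and *Gja5* were at 2.96 (1.69 to 4.81) and *Gja4* and *Bmx* at 2.41, *Gja4* and *Aplnr* were at 0.489, and *Gja5* and *Aplnr* shared 3 cells of 12.2 expected. In *iSuRe-Cre* heart only 7 cells held *Gja5*, 5 of them with *Gja4* against 1.52 expected, *Gja4* and *Bmx* were at 2.57, and *Gja4* and *Aplnr* were at 0.525. *Vwf*, listed as venous, went with *Gja4* (2.65, 1.86 to 3.67) and *Bmx* (4.18, 2.82 to 5.96) in this group and apart from *Aplnr* (0.309, 0.160 to 0.539). Endocardial-like cluster 11 held 83.5% of the *Vwf*, 65.2% of the *Bmx* and 35.7% of the *Gja4* UMIs of this group, in 48 of 435 cells. Within cluster 11, over all groups, *Bmx* and *Vwf* shared 31 cells where 30.8 were expected. In *iSuRe-Cre* liver *Vwf* and *Aplnr* went together (1.30, 1.09 to 1.53), while *Gja5* and *Bmx* were at 3.57 (2.49 to 4.97), *Gja5* and *Vwf* at 2.06 (1.49 to 2.78) and *Gja5* and *Gja1* at 0.232 (0.0935 to 0.479).

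The members were also set beside *Notch1* within cells. Cells with a *Notch1* UMI were deeper (in *iSuRe-HadCre* heart a median of 14498 against 7015 UMIs), and free RNA held *Notch1* at 19.5 CPM, close to its level in the *iSuRe* groups. The part of either in the result was not tested. In *iSuRe-HadCre* heart, 40 cells with a *Notch1* UMI held *Gja5* at 65.0 CPM (47 UMIs) and the other 271 at 12.2 CPM (29 UMIs), a ratio of 5.33 (3.29 to 8.79). In *iSuRe-Cre* heart the 59 cells with *Notch1* held 18 *Gja5* UMIs and the other 376 held 5. In control heart the 179 cells with *Notch1* held 60 *Gja5* UMIs and the other 75 held 2. These UMIs came from few cells. Counted as cells, 19, 3 and 7 held both genes where 14.1, 0.897 and 3.42 were expected, ratios of 1.34 (0.808 to 2.10), 3.35 (0.690 to 9.78) and 2.05 (0.824 to 4.22), and no interval excluded 1.

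*Gja4* and *Efnb2* did not show this difference in *iSuRe-HadCre* heart, where cells with *Notch1* stood at 1.23 (0.949 to 1.59) and 0.904 (0.768 to 1.06) of those without. In control heart the *Gja4* ratio was 3.02 (2.06 to 4.57) in UMIs, but observed over expected cells stood at 1.211 (0.9198 to 1.566). *Aplnr* (0.456, 0.353 to 0.582) and *Nr2f2* (0.494, 0.347 to 0.688) were lower in UMIs in the *Notch1*-positive *iSuRe-HadCre* heart cells. Counted as cells, they were at 0.9157 (0.5926 to 1.352) and 0.9266 (0.5398 to 1.484) of the expected number. In *iSuRe-Cre* heart *Nr2f2* went the other way in UMIs, at 1.83 (1.61 to 2.07), and was at 1.111 (0.8041 to 1.497) by cells. The intervals by cells for *Gja4* in control heart and for *Aplnr* and *Nr2f2* thus all included 1. Those of *Gja4* (1.874, 1.201 to 2.789) and *Vwf* (2.189, 1.251 to 3.554) in *iSuRe-Cre* heart lay above 1. So did those of *Gja4* (ratio 1.507), *Gja5* (1.913), *Unc5b* (1.602) and *Bmx* (1.447) in *iSuRe-Cre* liver.

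Further arterial and venous genes gave a wider view of the same programmes. Of 20 further arterial genes, all with enough UMIs, 13 were lower and 1 higher in *iSuRe-Cre* heart, with a median log2 ratio of -0.95 against -0.06 over all genes, of which 11.5% were lower and 11.1% higher. The lymphangiogenic ligand *Vegfc* stood at 0.194 of control, the guidance ligand *Sema3g* at 0.199 and the Notch target *Hey1* at 0.240. *Gkn3*, an arteriole marker, was the one that was higher, on 35 UMIs against 3 (4.26-fold, 1.34 to 21.6). Of 15 venous genes with enough UMIs, 2 were lower and 4 higher, the latter being the adhesion genes *Selp* (3.10-fold) and *Sele* (2.27-fold), *Plvap* (1.84-fold) and *Flt4* (1.73-fold). The lymphatic list, whose cells also express *Flt4*, summed to 26.4, 152 and 29.3 CPM in the hearts (5 of 5 genes detected in each), and its part in the result was not tested.

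In *iSuRe-HadCre* heart 1 of 19 further arterial genes was lower and 1 higher, with a median of 0.13, the same as over all genes, of which 3.79% were lower and 15.2% higher. *Vegfc* was at 0.662 and *Tmem100*, a target of BMP signalling, at 2.27-fold, while *Hey2* (0.676, on 9 against 13 UMIs) and *Cxcl12* (1.41-fold) were within the rule. Of 14 venous genes 3 were lower, among them *Vcam1* (0.494) and *Bgn* (0.522), and 2 higher, *Tll1* (1.81-fold) and *Flt4* (1.57-fold).

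In *iSuRe-Cre* liver 17 of 19 further arterial genes were lower, with a median of -1.71, against 19.2% lower of all genes. *Hey1* was at 0.113 of control, *Vegfc* at 0.138 and *Tmem100* at 0.146, while *Gkn3* had 24 UMIs against none in control liver, a level below that of 3 UMIs there, so that it could not be called higher. The venous list was at 2 lower and 3 higher of 16, with *Tll1* at 0.187, *Cpe* at 0.445, *Flt4* at 4.43-fold and *Slco2a1* at 1.62-fold. In *iSuRe-HadCre* liver 3 of 17 arterial genes were lower and 2 higher (median -0.33), near the 11.5% and 10.7% over all genes, with *Tmem100* at 0.460, *Vegfc* at 0.518, *Mecom* at 0.538 and *Cxcl12* at 2.73-fold. Of 15 venous genes 3 were lower and 1 higher there, with *Tll1* at 0.430, *Selp* at 0.468, *Vcam1* at 0.630 and *Nr2f1* at 1.77-fold (0.939 to 3.47). The difference in sinusoidal markers given above lies beside all of these liver values, as does the lymphatic list, at 88.1, 559 and 152 CPM with *Ccl21a* at 0 in control and *iSuRe-HadCre* liver and *Reln* at 0 in the latter. Their part in the result was not tested.

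The genes most like each member over the 254 control heart cells, among 5162 genes with enough UMIs, were named by Pearson's correlation of log-normalized values, which share the depth of each cell. *Gja4* was most like *Cxcl12* (0.71), *Glul* (0.67) and *Fbln5* (0.64), all leading genes of cluster 8. *Cxcl12* was also first for *Efnb2* (0.51) and *Unc5b* (0.54). *Aplnr* was most like *Nav3* (0.45), and the correlations of *Gja1*, *Ephb4* and *Nr2f2* were at most 0.39.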

How the data were processed

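Heart and liver ECs of 6 hashtagged samples were measured in 1 pooled 10x library. Reads were counted by the authors in Cell Ranger 7.1.0 (submitters' notes) on GRCm38 plus the transgenes. The deposited UMI counts cover 21964 features, hashtags among them, in 2755147 unfiltered barcodes. The 10 members, the further gene lists and the fold rule were chosen with earlier results of these data known. Counts were summed per group and divided by all gene UMIs of the group (CPM), with exact Poisson intervals, exact conditional intervals for ratios and exact binomial intervals (Clopper-Pearson) for shares. With 1 sample per group no test was run. Several-tag barcodes were left out and no doublet caller was run, so doublets within 1 tag may remain. Thinned shares are expectations over all draws of 2000 UMIs. Free RNA was taken from 24194 barcodes of 10 to 100 UMIs. Clusters came from Leiden clustering (resolution 1, 30 components, 2000 variable genes) in scanpy 1.11.5. Named genes were the members, *Notch1*, *Cdh5*, WPRE and Tomato, and, of the further lists, the up to 4 genes with the largest ratio in each comparison. Marker genes of other cell types are named as checks, and the leading genes of clusters by their rank. Alternatives changed tag limits, demultiplexing (HTODemux, Seurat 5.3.0), cell filters, weighting, depth, free RNA and the fold; those restricting clusters were mostly chosen after seeing the data. Scripts ran in Python 3.11.15 and were tested on simulated data.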

Additional observations from a re-analysis of the deposited data

Results flagged for a closer look

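*Vwf* lay on opposite sides of control in the 2 tissues under both alleles. In *iSuRe-Cre* cells it was at 1.52 of control in the heart and at 0.458 in the liver, and in *iSuRe-HadCre* cells at 1.40 in the heart and at 0.668 in the liver. Each group is 1 sample, so the difference between tissues was not tested. The heart levels of *Vwf* (21.1 to 32.2 CPM) were below its 47.7 CPM in free RNA. Endocardial-like cluster 11 held 15.6%, 83.5% and 38.0% of the *Vwf* UMIs of the 3 hearts, in 6, 48 and 10 cells. The sinusoidal markers of the liver groups differed as given above. The part of each in the result was not tested.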

How the results depend on the processing

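Of 158 recomputed counts and co-detection medians, 125 stayed within 1.5 times or the same range. Of 664 single-gene ratios and pair values 512 stayed, ratios within their counting interval and pair values within 1.5 times. A further 148 moved by more, and 4 were ratios past 1.5-fold that crossed 1. Counting ratios within 1.5-fold too, 73 of 649 lay on the other side of 1 from the reported value, in 23 of 50 ratios. The count of 4 lower arterial genes in *iSuRe-Cre* heart was 4 to 6 under every alternative run. The 3 called venous genes of *iSuRe-Cre* heart became 0 at a 2-fold limit and 1 within cluster 8. In *iSuRe-HadCre* heart the arterial count of 0 became 1 with at least 50 tag UMIs and after thinning and 2 within cluster 8, and the venous count of 0 became 1 with at least 10 or 50 tag UMIs, under 6000 genes, by the mean over cells, after thinning and after subtracting free RNA, and 2 within cluster 2 and without clusters of low *Pecam1*. In *iSuRe-Cre* liver the arterial 5 became 0 within cluster 7, and the venous 3 became 1 with HTODemux, at 2-fold and within cluster 7. In *iSuRe-HadCre* liver the arterial 2 became 1 with at least 10 tag UMIs, with HTODemux, within cluster 7 and without low-*Pecam1* clusters, and 3 with at least 50 tag UMIs, after thinning and within cluster 10. The venous 0 there became 1 with at least 10 tag UMIs, HTODemux, no *Cdh5* limit, under 6000 genes, by the mean over cells, after thinning, after subtracting free RNA and without low-*Pecam1* clusters, and 3 within cluster 10. Ratios past 1.5-fold that crossed 1 were *Vwf* in *iSuRe-Cre* heart (0.835 with at least 50 tag UMIs, 0.383 within cluster 8), *Aplnr* there (1.24 within cluster 8) and *Bmx* in *iSuRe-Cre* liver (1.21 within cluster 7). The arterial-venous co-detection median of control heart became 1.02 without depth bins. Restricting to 1 cluster leaves fewer cells; the cause of the other shifts was not tested. The restrictions to clusters 7, 8 and 10 and to *Pecam1* level were chosen after seeing the data. No paired analysis was possible because each group is 1 sample.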

Other observations

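The 5585 *Cdh5*-positive barcodes without a passing hashtag belong to no group. Over 32752884 UMIs they held *Gja4* at 92.3 CPM, *Gja5* at 10.1, *Efnb2* at 149, *Unc5b* at 26.2, *Nr2f2* at 182, *Aplnr* at 94.7 and *Vwf* at 56.3, each between the lowest and the highest of the 6 groups. *Bmx*, at 18.8 CPM, was below all 6 groups, the lowest of which was at 22.2.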
